A study of Rattus norvegicus with 15 samples.

Results

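Mitochondrial ribosomal protein genes were taken as the rows of the count table whose symbol begins with Mrpl or Mrps followed by a digit, which gave 71 genes of 11574. These genes encode the proteins of the ribosome inside mitochondria, a particle distinct from the cytosolic ribosome. They are transcribed in the nucleus, made in the cytosol and imported, and they assemble with ribosomal RNA that mitochondrial DNA encodes. The finished ribosome translates the few respiratory chain and ATP synthase subunits that mitochondrial DNA encodes, which join the many nuclear-encoded subunits in the inner membrane. Heart and skeletal muscle depend heavily on these complexes.

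By their place in the ribosome, 44 of the 71 genes encode proteins of the large subunit and 26 encode proteins of the small subunit. Mrps30 and Mrps18a carry small-subunit names but encode proteins that sit in the large subunit, and they were counted there. Mrps36, whose product belongs to the 2-oxoglutarate dehydrogenase complex and not to the ribosome, matched the name rule and was kept as a separate member. By the current naming of ribosomal proteins, 40 have a bacterial counterpart and 30 are specific to mitochondria. The table spells mrpl9, mrpl11 and mrpl24 in lower case, so that these 3 fell outside the rule, and Mrpl1, Mrpl30, Mrpl36 and Mrpl53 were not analysed here.

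H9c2 is a myoblast line from embryonic rat heart that fuses into myotubes when serum is lowered, and all 15 cultures were of this 1 unmodified line. Cells attached for 24 hours, after which serum was lowered from 10% to 1%. RNA-seq libraries were made from 3 cultures in each of 5 groups: T0 (day 0, no retinoic acid), T7-RA and T14-RA (day 7 and day 14 without retinoic acid) and T7+RA and T14+RA (the same days with 1 µM all-trans retinoic acid, RA, added daily from a stock in DMSO). The sources do not say whether the cultures without RA received DMSO. Time in culture and the lowered serum cannot be told apart, since no culture was kept in high serum, and the p-values below measure the spread between these cultures only.

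Libraries held 508397 to 1030820 counts, of which the mitochondrial ribosomal protein genes took 0.177% to 0.278%. A member had a median count of 20 in a library. Of the 71, 35 (49.3%) had at least 10 counts in every library, against 51.2% of all genes, and 68 had a mean of at least 10. Summed skeletal muscle markers, of which 9 of 10 were in the table, went from 897-921 CPM (counts scaled to library size) at T0 to 11345-11840 in T14-RA and 5058-5859 in T14+RA. Of these 9 genes, 7 were called higher and 1 lower for T14 at an adjusted p under 0.001 (Cdh15, -1.10), Myod1 was at -0.88 (adjusted p = 0.00689), and 4 were called lower and 0 higher for RA. Of the cardiac markers only Actc1, Gata4 and Tnnt2 had a row (3 of 10), at a summed 67.5-83.8 CPM at T0, 931-1070 in T14-RA and 638-742 in T14+RA. Of these 3, 2 were called higher for T14, and the changes ran from 0.33 to 6.04. For RA 1 was called lower and 0 higher, and the lowest change was -2.73. With 3 of 10 genes present, the heart origin in the label cannot be read from this list. Endothelial, immune and epithelial lists had 1 gene each (Tek, Cd14 and Krt8), with at most 6.29, 58.1 and 43.6 CPM in any library. Cd14 had 10.5-22.5 CPM at T0, 16.9-28.8 in T14-RA and 37.6-58.1 in T14+RA, and its RA change of 0.61 (1.00 at day 14) passed an adjusted p of 0.05 (0.0463 and 0.0109). The part of these marker changes in the values below was not tested, and in bulk RNA fewer cells of a type and less RNA per cell cannot be told apart.

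The sequences just upstream of the start sites are given first for some genes named below. Mrpl33 and Mrps6 are the 2 members called for T14 at an adjusted p under 0.001. Mrpl44 and Mrpl23 are examples with a promoter motif, and the start of Mrps11 faces that of Mrpl46. RefSeq records (build GRCr8, newer than the Rnor_6.0 of the counts) held a promoter window for 56 of the 71 members, and each line holds the 250 bases before the annotated start, 5′ to 3′ on the gene's strand, with motif matches in capitals. The windows are chr6:30553988-30554237 (minus strand), chr11:44778417-44778666 (plus strand), chr9:88554800-88555049 (plus strand), chr1:207116680-207116929 (plus strand) and chr1:142117014-142117263 (plus strand).
Mrpl33: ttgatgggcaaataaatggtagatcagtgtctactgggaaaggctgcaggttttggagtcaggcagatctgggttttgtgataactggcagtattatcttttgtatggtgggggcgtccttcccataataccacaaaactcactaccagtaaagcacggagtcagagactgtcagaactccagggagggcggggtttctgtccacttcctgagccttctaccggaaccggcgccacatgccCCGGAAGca
Mrps6: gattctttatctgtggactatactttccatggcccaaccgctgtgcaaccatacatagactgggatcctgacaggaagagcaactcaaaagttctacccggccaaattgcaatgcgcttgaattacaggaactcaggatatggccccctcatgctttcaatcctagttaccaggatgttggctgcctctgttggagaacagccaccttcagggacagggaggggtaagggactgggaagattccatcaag
Mrpl44: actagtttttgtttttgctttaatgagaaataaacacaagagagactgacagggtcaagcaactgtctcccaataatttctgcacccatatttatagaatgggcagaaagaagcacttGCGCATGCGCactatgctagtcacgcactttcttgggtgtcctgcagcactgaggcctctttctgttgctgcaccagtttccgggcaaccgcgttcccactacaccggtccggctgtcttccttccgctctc
Mrpl23: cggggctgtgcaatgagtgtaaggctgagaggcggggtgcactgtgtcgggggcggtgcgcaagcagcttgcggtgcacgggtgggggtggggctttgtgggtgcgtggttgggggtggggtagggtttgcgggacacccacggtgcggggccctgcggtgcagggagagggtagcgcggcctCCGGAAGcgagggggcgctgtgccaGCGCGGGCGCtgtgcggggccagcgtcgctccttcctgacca
Mrps11: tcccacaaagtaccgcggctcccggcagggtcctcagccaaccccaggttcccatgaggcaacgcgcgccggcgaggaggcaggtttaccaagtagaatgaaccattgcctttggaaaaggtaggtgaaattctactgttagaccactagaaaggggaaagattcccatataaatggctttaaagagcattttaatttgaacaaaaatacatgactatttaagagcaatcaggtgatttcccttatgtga

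Motifs searched on both strands were GCGC and GCGC parted by NN, bound by NRF1, CCGGAAG, bound by ETS factors such as GABPA, and AAGATGGCG, bound by YY1. NRF1 and GABPA are known as activators of nuclear genes for mitochondria. The NRF1 motif was found in 8 of the 56 member windows, against 4.8% of all 33469 promoter windows and 6.47% of those of protein-coding genes. The ETS motif was found in 11 (19.6%), against 7.27% and 9.01%, and the YY1 motif in 0, against 0.693% of all windows. The NRF1 and ETS motifs share no letters in Mrpl23, where both occur, and the Mrpl33 window has the ETS motif beginning 9 bases before the start. The Mrps6 window held none of the 3 motifs, which says only that these letters were not in those 250 bases. A start on the opposite strand lay within 1000 bases in 18 of the 56 members (32.1%), against 12.5% of all promoters. Mrps11 and Mrpl46 are such a pair, with starts 234 bases apart. These matches are descriptions of sequence and not of binding.

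Levels differed widely among members. Per base of transcript, the mean over libraries ran from 14.9 TPM (transcripts scaled for length and depth) for Mrps10 to 343 TPM for Mrpl17, a large-subunit protein near the exit of the peptide tunnel. Mrpl33 at 285 TPM and Mrps6 at 195 TPM came next. Gene length here is the largest size listed for the gene, read as its longest transcript, and the place of Mrpl33 rests on it, since its total count of 290 was below the members' median of 308. By total counts over the 15 libraries the lowest were Mrps10 (92), Mrps28 (125) and Mrpl34 (132), and the highest were Mrpl17 (1626), Mrps6 (685) and Mrpl12 (640). The 15 CPM values of Mrps10 lay between 2.10 and 22.0, and those of Mrps28 between 1.45 and 22.0, so that changes of these genes were poorly measured. Mrpl34 ranged from 2.76 to 22.5 CPM, with both extremes among the T0 cultures. Mrpl17 was at 103, 180 and 128 CPM at T0. Cultures without RA had 144-165 CPM at day 7 and 130-159 at day 14, and those with RA had 113-185 at day 7 and 172-203 at day 14. Its T14 change was 0.23 on the log2 scale (95% interval -0.09 to 0.56, adjusted p = 0.288). Without T0 replicate 2 it was 0.49 (adjusted p = 0.0204). The T0 range overlapped every other group, while T14+RA lay above T14-RA.

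**Figure D1:**
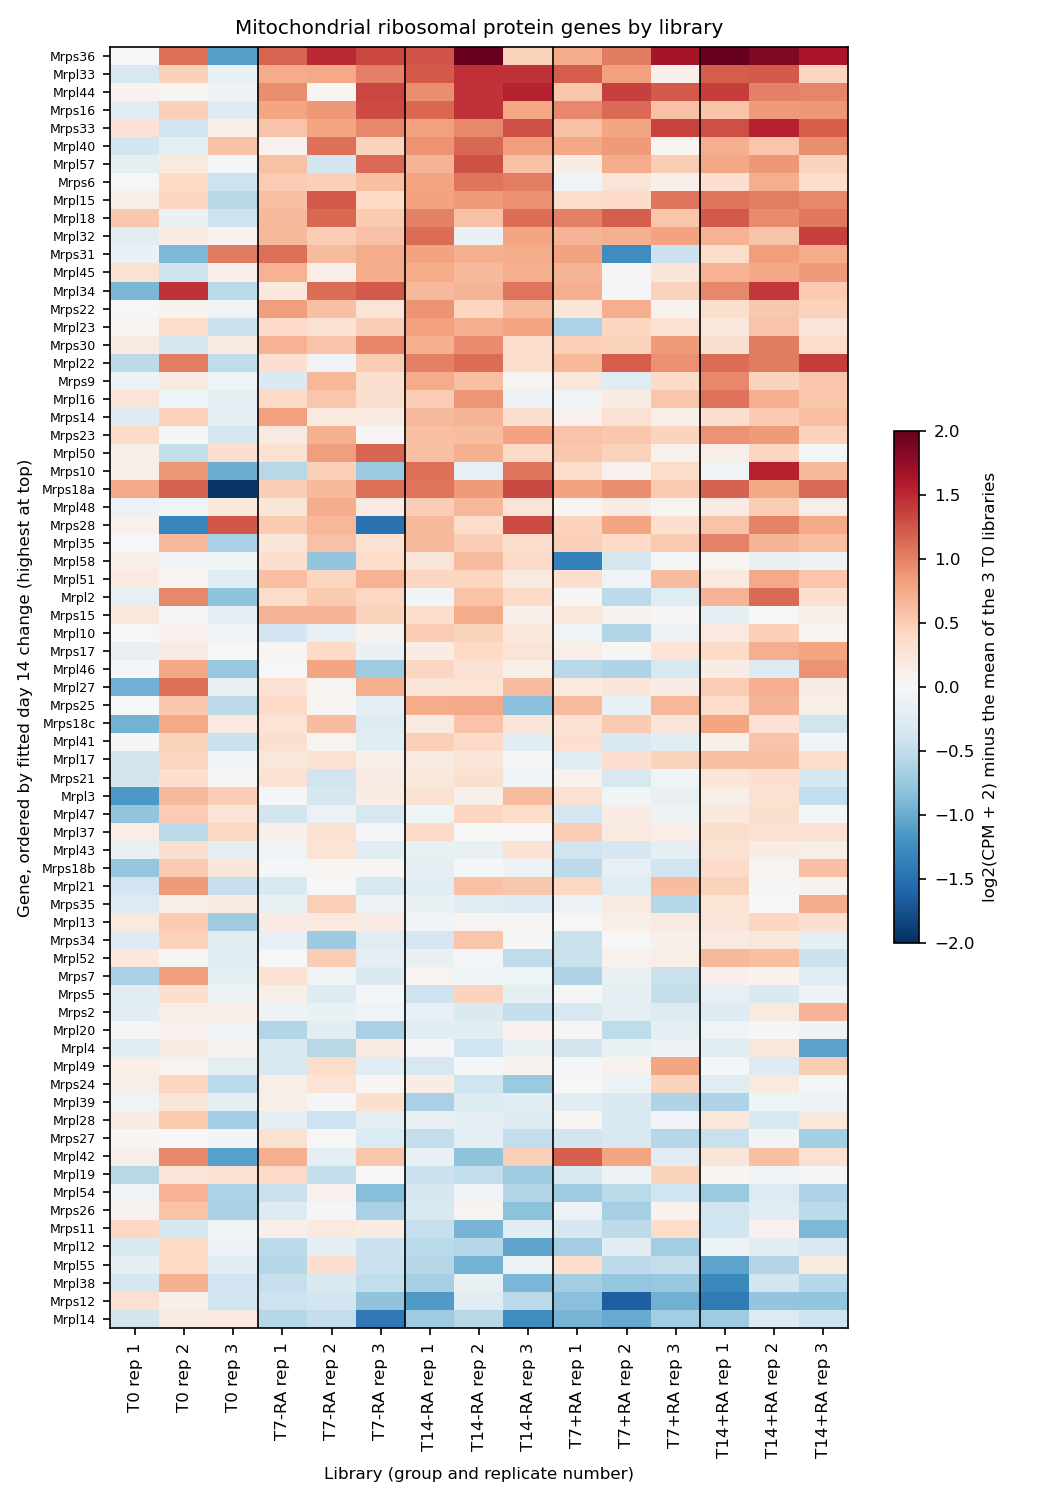
Heat map of the 71 genes (rows, ordered by the fitted day 14 change) in the 15 libraries (columns, grouped by day and RA), coloured by log2(CPM + 2) minus the mean of the 3 T0 libraries. Reds at the top right and blues at the bottom right are shared by cultures with and without RA, and the middle column of T0 is redder than its neighbours.

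The question of the time course was how far these genes moved between day 0 and days 7 and 14, and most did not pass the test. One model over all genes held a term for day 7 (T7), one for day 14 (T14) and one for RA (edgeR's quasi-likelihood test, Benjamini-Hochberg adjustment, called under 0.001). For T7 no member was called, by this test or by DESeq2 or limma, where edgeR called 8.73% of all genes. For T14, 2 of 71 were called (2.82%), both higher, against 8.47% of all genes called higher, 17.3% called in either direction and 16.5% of the 8126 genes in the members' range of total counts. At an unadjusted p under 0.05, 16 members passed for T7 (34.2% of all genes) and 24 for T14 (43.1% of all genes). The median change was 0.04 for T7 and 0.28 for T14 on the log2 scale, against 0.02 and 0.05 over all genes. For T14, 48 of the 71 lay above 0, and the range was -0.71 to 1.47. The median standard error of a member's T14 change was 0.292, which is an error for 1 gene and not for the median over the 71.

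Mrps6, a small-subunit protein with a bacterial homologue, had 48.3, 63.8 and 35.6 CPM at T0, 69.2, 67.2 and 74.1 in T7-RA, then 84.1, 103 and 99.9 in T14-RA. All cultures of T7-RA lay above all of T0, and all of T14-RA above all of T7-RA. With RA it had 45.6, 57.7 and 51.4 CPM at day 7 and 60.8, 80.2 and 61.6 at day 14, below the cultures of the same day without RA and overlapping T0. Its T14 change was 0.92 ± 0.196 (SE; 95% interval 0.54 to 1.30; adjusted p = 0.000134), and its T7 change was 0.51 (adjusted p = 0.0546). RefSeq places Slc5a3, an inositol transporter gene, within the bounds of Mrps6. Slc5a3 was not analysed here, and how reads from the shared stretch were counted is not given in the sources used here. In all, 15 of the 70 members with a RefSeq gene record overlap a protein-coding gene, among them Mrpl14 and Mrps12, and their values carry the same doubt.

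Mrpl33, one of the smallest large-subunit proteins, had 11.0, 20.6 and 12.6 CPM at T0, 25.1, 25.5 and 30.5 in T7-RA, then 36.0, 42.5 and 42.3 in T14-RA, with no overlap between the 3 groups. With RA the values scattered more, at 35.6, 26.8 and 15.4 CPM at day 7 and 35.7, 36.1 and 19.9 at day 14, and 1 culture of each lay among the T0 values. The T14 change was 1.38 ± 0.325 (SE; adjusted p = 0.000499) and the T7 change 0.97 (adjusted p = 0.0282). The gene size listed for it, 198 bases, is the smallest of all members. The call was lost when T0 replicate 1 (adjusted p = 0.0116), T0 replicate 3 (0.00274) or T14-RA replicate 1, 2 or 3 (0.00102, 0.0018 and 0.00183) was left out, and that of Mrps6 without T0 replicate 1 (0.00166) or T0 replicate 3 (0.00255).

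At the looser adjusted p of 0.05, named here outside the rule for named genes, 13 members were higher and 2 lower for T14, together 15 of 71. Of all genes 17.9% were higher and 17.5% lower, together 35.4%. Higher were, besides Mrpl33 and Mrps6, the large-subunit genes Mrpl15, Mrpl18, Mrpl23, Mrpl40, Mrpl44, Mrpl45, Mrpl57 and Mrps30, the small-subunit genes Mrps16 and Mrps33, and Mrps36. Lower were Mrpl12 and Mrps12. For T7, 5 were higher (Mrpl15, Mrpl33, Mrpl44, Mrps16 and Mrps30) and 2 lower (Mrpl12 and Mrpl14), 7 in all, where 11.7% of all genes were higher, 11.5% lower and 23.1% either. The split between higher and lower depended on the scaling and the tool. With scaling by library size alone, which moved the median of all genes to 0.13 for T7 and 0.15 for T14, 18 members were higher and 0 lower for T14 (against 21.5% of all genes higher and 1643 of 11574 lower), and 9 were higher and 1 lower for T7 (15.4% and 8.28% of all genes). DESeq2 called 9 higher and 0 lower for T14 (15.5% and 15.3% of the genes it gave an adjusted p), and 1 higher and 1 lower for T7 (12.6% and 13.5%). Neither lower T14 call was kept in these fits. With a trend on gene length taken out of each library, an alternative chosen after seeing the data, 4 were higher and 4 lower for T7 (12.1% and 12.6% of all genes) and 8 higher and 6 lower for T14 (18.4% and 18.1% of all genes). With all libraries and the main scaling, for T7 the members' share was under that of all genes in both directions. For T14 that held for the lower calls, while the share called higher was near that of all genes. With each library left out in turn, 6 of the 15 T14 calls at 0.05 were kept in all 15 fits (Mrpl15, Mrpl33, Mrpl44, Mrps16, Mrps33 and Mrps6), and none of the 7 T7 calls was. The T7 count ran from 2, without T7-RA replicate 3, to 7, and the 7 genes called without T0 replicate 2 shared 3 with the 7 above (Mrpl15, Mrpl33 and Mrps16). Without a model, T7-RA lay wholly above T0 for 11 members and wholly below it for 2, against 17.5% and 15.8% of all genes. T14-RA lay above T0 for 19 and below it for 4 (21.5% and 19.1% of all genes), and T14+RA above T0 for 17 and below it for 3 (22.5% and 21.1% of all genes).

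Mrpl44, a mitochondria-specific large-subunit protein with a ribonuclease III-like fold, had 9.66, 9.38 and 8.38 CPM at T0 and 19.2, 28.3 and 30.5 in T14-RA, which did not overlap. At day 7 without RA it ranged from 9.41 to 26.1 CPM, and with RA at most 26.8. Its change was 1.06 for T7 (adjusted p = 0.0471) and 1.35 for T14 (adjusted p = 0.00522). Mrps16, a small-subunit protein with a bacterial homologue, had 11.0, 18.8 and 10.5 CPM at T0 and lay at 20.3 or above in all 12 later libraries. Its changes were 1.14 for T7 (adjusted p = 0.00838) and 1.13 for T14 (adjusted p = 0.00568), so that day 7 and day 14 differed from T0 by nearly the same amount. Mrpl15, a large-subunit protein with a bacterial homologue, had 34.5, 43.2 and 21.0 CPM at T0, and all 3 cultures of T14-RA (56.5, 58.4 and 61.0) and of T14+RA (68.5, 66.0 and 63.5) lay above them (T14 0.90, adjusted p = 0.00282). Mrps33, a mitochondria-specific protein of the small subunit, had 19.3, 11.3 and 16.8 CPM at T0, while its 12 later values ran from 23.9 to 48.7 with no overlap (T14 1.09, adjusted p = 0.00386). Both genes separated the T0 cultures from the day 14 cultures with and without RA, short of the threshold of 0.001.

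Mrps36 had the highest T14 value of all members, 1.47 (adjusted p = 0.00634), and a T7 value of 0.99 (adjusted p = 0.110). Its levels went from 6.90, 16.9 and 2.10 CPM at T0 to 19.2, 33.7 and 10.2 in T14-RA and 40.5, 29.9 and 25.4 in T14+RA. The T0 cultures differed by more than their mean, and T14-RA overlapped them while T14+RA did not. Without T0 replicate 2 its change was 2.26 and passed the threshold (adjusted p = 0.000584). Leaving Mrps36 out altogether left the median of the other 70 genes at 0.28 for T14.

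At the lower end, Mrpl14, a protein at the face where the subunits meet, had 26.2, 39.4 and 39.8 CPM at T0 and 20.4, 23.0 and 13.5 in T14-RA, without overlap. In T14+RA it had 20.3, 28.3 and 25.4 CPM, which overlapped T0. Its change was -0.91 for T7 (adjusted p = 0.0189) and -0.71 for T14 (adjusted p = 0.0552). Mrpl12, the protein of the flexible stalk that recruits translation factors, had 64.8, 105 and 73.4 CPM at T0, 54.9, 69.9 and 58.1 in T7-RA, then 54.1, 53.1 and 37.3 in T14-RA, all of these last below all of T0. With RA at day 14 it had 73.3, 67.6 and 63.5 CPM, above all of T14-RA and overlapping T0. Its change was -0.54 for both T7 (adjusted p = 0.0414) and T14 (adjusted p = 0.0356), and -0.31 (adjusted p = 0.335) and -0.30 (adjusted p = 0.330) without T0 replicate 2. Mrps12, the small-subunit protein at the decoding centre, had 52.4, 45.0 and 31.4 CPM at T0 and 18.0, 35.4 and 28.8 in T14-RA, with overlap (T14 -0.68, adjusted p = 0.0488, T7 -0.64, adjusted p = 0.0761). Mrpl38, a mitochondria-specific large-subunit protein, had 26.2, 56.3 and 25.2 CPM at T0 and 20.4, 30.1 and 16.9 in T14-RA (T14 -0.64, adjusted p = 0.0926). The 56.3 was T0 replicate 2, and without that library the change of Mrpl38 was -0.17.

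**Figure D2:**
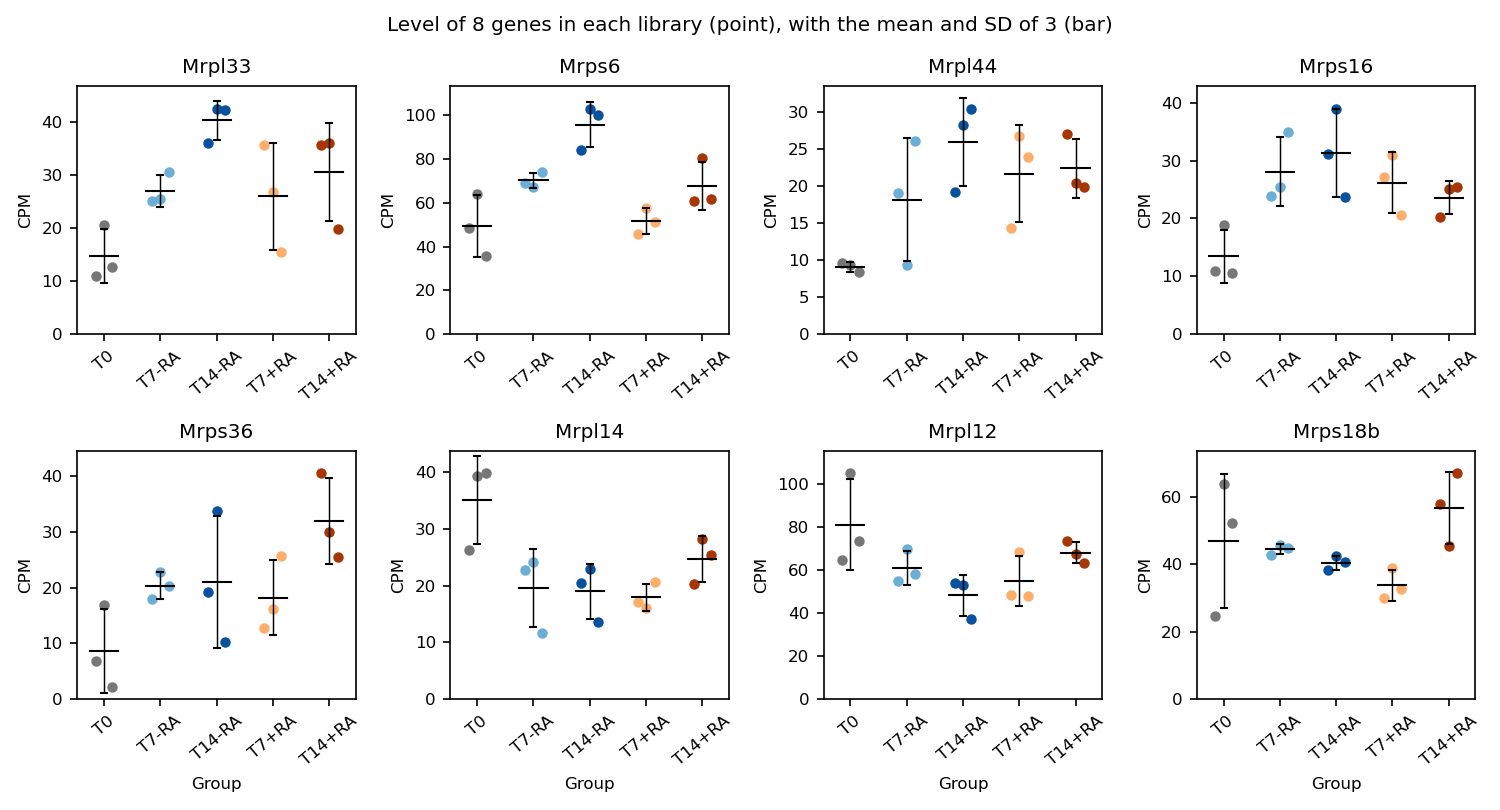
CPM of 8 named genes in each of the 5 groups, with a point for each library and a bar for the mean and SD of 3. Mrpl33 and Mrps6 rise without overlap from T0 through T7-RA to T14-RA, Mrpl14 and Mrpl12 lie lower in T14-RA than at T0, and Mrps18b separates by RA in opposite directions on the 2 days.

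Large and small subunit genes had similar changes. The T14 median was 0.31 over the 44 large-subunit genes and 0.27 over the 26 small-subunit genes, with 1 call in each. It was 0.27 over the 40 genes with a bacterial homologue and 0.31 over the 30 mitochondria-specific genes. The summed CPM of small over large subunit genes was 0.508 to 0.613 in all 15 libraries, and the ranges of all 5 groups overlapped. Of the 5 ribosomal proteins named outside the rule (Aurkaip1, Chchd1, Dap3, Gadd45gip1 and Ptcd3), none was called, with a T14 median of 0.12. The 3 lower-case genes had T14 values of 1.41 (mrpl9, adjusted p = 0.00166), 0.25 (mrpl11) and 0.24 (mrpl24), none of them called. Of the 56 members with a promoter record, the 8 with the NRF1 motif had a T14 median of 0.74 and the other 48 of 0.31, and for the ETS motif the medians were 0.54 in 11 and 0.28 in 45. These are descriptions without a test.

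Mrps11 and Mrpl46, which share the stretch of sequence printed above, did not have the same T14 values. Mrps11, a small-subunit protein, had 30.3, 16.9 and 21.0 CPM at T0 and 15.6, 10.6 and 18.6 in T14-RA (T14 -0.48, adjusted p = 0.278). Mrpl46, a large-subunit protein, had 15.2, 28.1 and 8.38 CPM at T0 and 21.6, 19.5 and 16.9 in T14-RA (T14 0.34, adjusted p = 0.529). Neither passed the test, the groups overlapped for both genes, and the difference between them was not tested.

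Set beside the partners of the mitochondrial ribosome, the members had a lower T14 median and fewer calls than the nuclear subunits of the respiratory chain and ATP synthase. Of 76 such subunits, 36 were called for T14, all higher, with a median of 0.73. The median standard error of a T14 change was 0.194 for these subunits and 0.292 for the members. A change of a given size was thus less readily called in the members, and the part of this in the counts was not tested. Cox8b and Cox6a2, muscle forms of cytochrome c oxidase subunits, were at 0 in some T0 cultures (highest values 2.76 and 6.29 CPM) and reached 97.4-107 and 79.3-86.8 CPM in T14-RA (adjusted p for T14 = 1.1e-17 and 4.03e-13). Cox6c, a subunit of the same enzyme, went from a mean of 92.3 CPM at T0 to 238 in T14-RA (adjusted p = 1.1e-11). Summed over all 76, the level was 7411, 9141 and 6674 CPM at T0, 9416-9904 in T7-RA, 11367-12012 in T14-RA, and with RA 8886-9115 at day 7 and 13075-15057 at day 14. Summed over the mitochondrial ribosomal protein genes, it was 1955, 2705 and 1884 CPM at T0, 2288-2451 in T7-RA, 2349-2616 in T14-RA, and with RA 2150-2305 at day 7 and 2491-2775 at day 14.

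Within a library, the ratio of the members to these subunits was 0.264, 0.296 and 0.282 at T0, 0.243-0.248 in T7-RA, 0.207-0.218 in T14-RA, and with RA 0.238-0.253 at day 7 and 0.184-0.196 at day 14. T0 lay above every later library, both day 14 groups lay below both day 7 groups, and T14+RA lay below T14-RA, while the day 7 groups overlapped. T0 replicate 2 kept to this order. The ratio to the 76 cytosolic ribosomal protein genes had no such order, at 0.0807 to 0.101 over all libraries with overlap between T0 and each other group. These ratios are given without a test, and the subunit lists were chosen with earlier results of these data known.

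**Figure D3:**
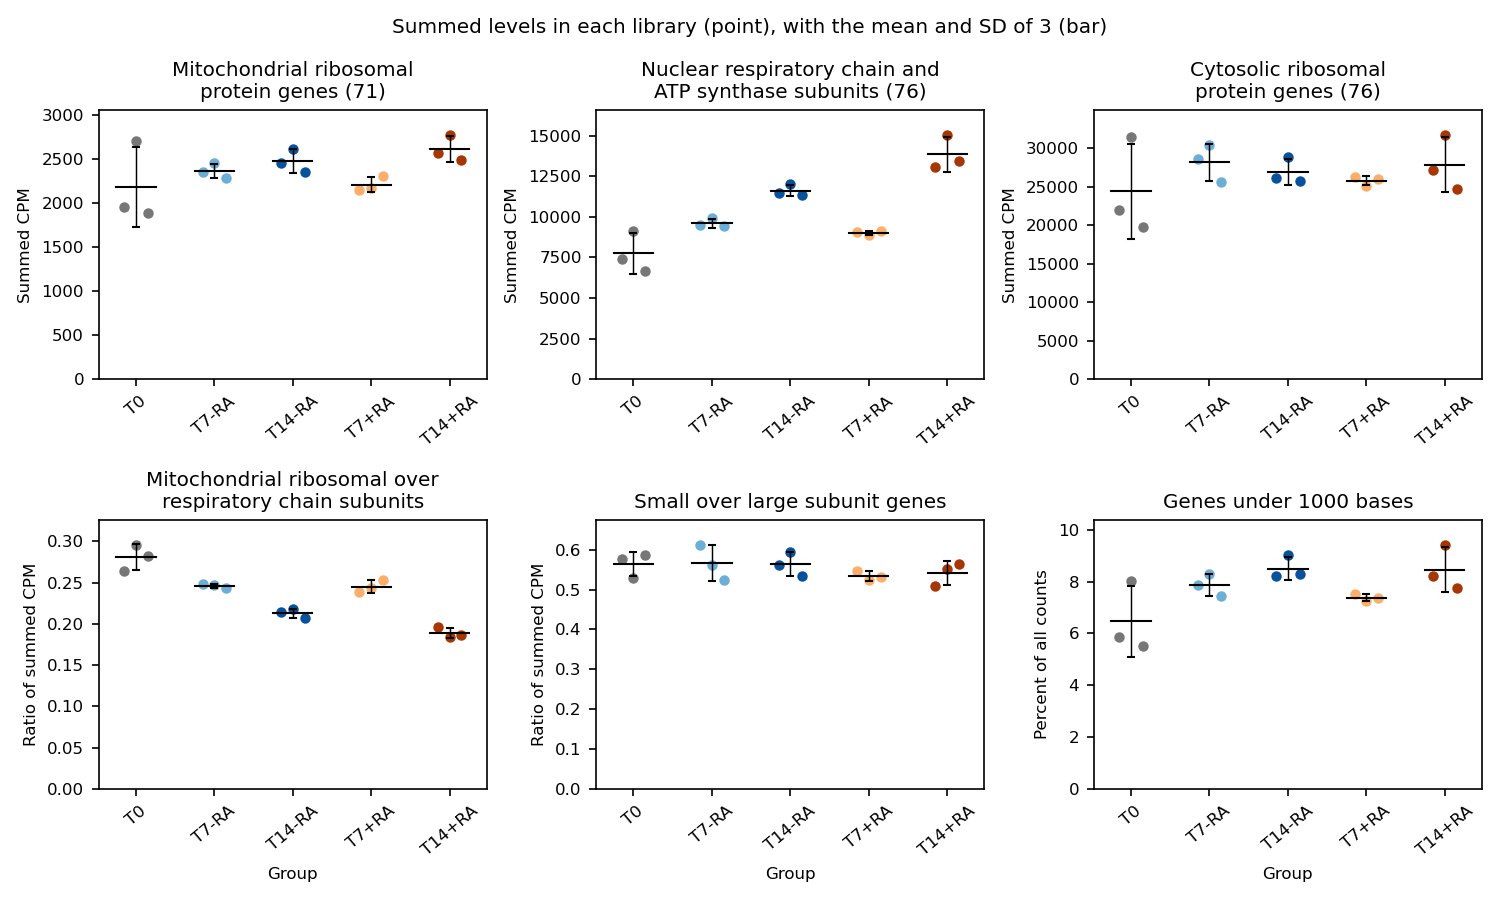
Summed CPM of 3 gene groups (top), 2 ratios of summed CPM and the percentage of counts in genes under 1000 bases (bottom), by group, with a point for each library and a bar for the mean and SD of 3. The ratio of mitochondrial ribosomal to respiratory chain genes steps down from 0.264-0.296 at T0 to 0.184-0.196 in T14+RA, and T0 replicate 2 is the high T0 point of the top row.

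Cytosolic ribosomal protein genes had a T14 median of 0.24, with 10 of 76 called higher and 1 lower. Rpl30 (1.72), Rps15a (0.74) and Rpl19 (0.64) were higher, and Rps2 (-0.73) was lower. Genes of mitochondrial translation factors and membrane insertion had a T14 median of 0.57. Of these 18, 2 were called, Cox20 at 1.40 (adjusted p = 9.23e-05), which helps the assembly of cytochrome c oxidase, and Oxa1l at 1.08 (adjusted p = 0.000426), which inserts newly made proteins into the inner membrane. Of the 19 mitochondrial aminoacyl-tRNA synthetase genes and the 28 genes of ribosome assembly none was called for T7, T14 or RA, with T14 medians of 0.16 and 0.29. Among 14 genes for transcription, replication and RNA turnover in mitochondria, Polg, the mitochondrial DNA polymerase, fell (T7 -0.76, adjusted p = 0.000427, and T14 -0.78, adjusted p = 0.000177). Pnpt1, an RNA-degrading enzyme, was called for T7 at 1.22 (adjusted p = 0.000954). Of 8 regulators, Pprc1, a growth-responsive coactivator of NRF1, fell from a mean of 236 CPM at T0 to 117 in T14-RA (T14 -1.10, adjusted p = 9.25e-09), while the other 7 were not called. At 0.05 Ppargc1b (1.54, adjusted p = 0.0103) and Esrra (0.47, adjusted p = 0.0464) were higher and Gabpb1 (-0.81, adjusted p = 0.0487) lower for T14, and Nrf1 (0.07) and Gabpa (-0.52) did not pass. Esrra was also higher with RA at 0.05 (0.43, adjusted p = 0.0132). Over the same days all 14 DNA replication genes were below 0 for T14, and 12 of them were called lower, among them Mcm5 (-2.21). The part of this change in the members' values was not tested.

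**Figure D4:**
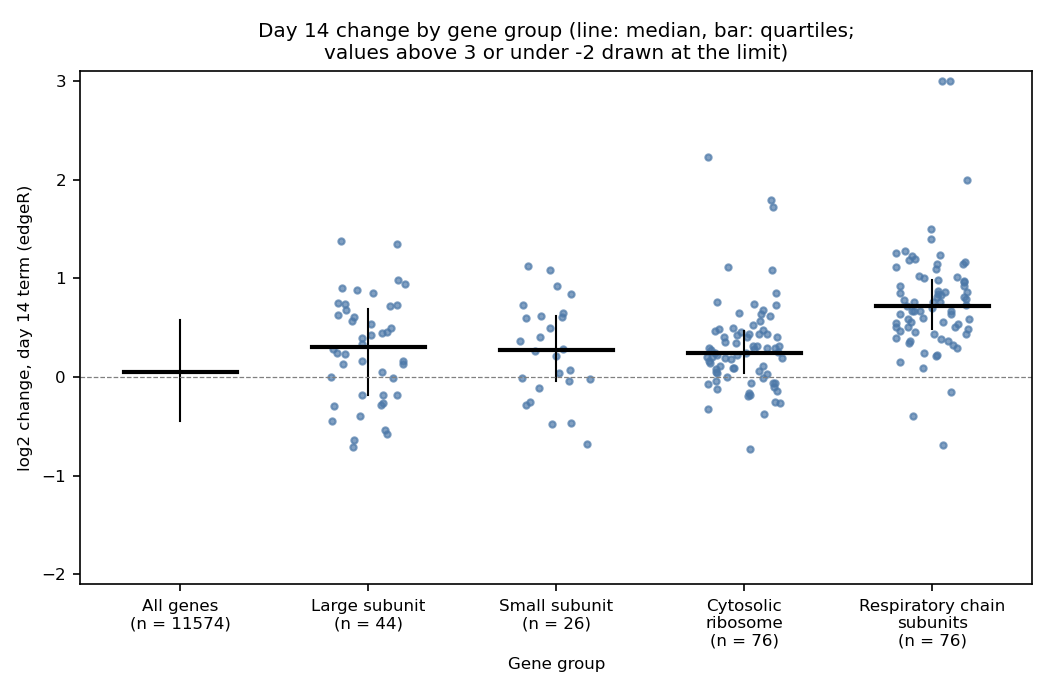
Day 14 log2 change of each gene (points) in 4 gene groups, with the median (horizontal line) and quartiles (vertical bar) of each group and of all 11574 genes. The medians of both subunits (0.31 and 0.27) and of the cytosolic ribosome (0.24) lie between those of all genes (0.05) and of the respiratory chain and ATP synthase subunits (0.73).

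The T0 cultures did not agree among themselves, and each T7 and T14 value rests on them. In T0 replicate 2, 56 of the 71 members lay above the mean of the 3 T0 libraries, and their summed level was 2705 CPM against 1955 and 1884. The same library had 8.03% of its counts in genes shorter than 1000 bases, against 5.86% and 5.51% in the other T0 libraries and 7.27% to 9.43% in the 12 later ones. The members are short, with a median of 1057 bases against 2305 over all genes and 34 of them under 1000. The 1343 other genes under 1000 bases had a T14 median of 0.29, and the 2182 other genes within the middle range of the members' lengths (the quartiles, 789 to 1562.5 bases) one of 0.15, beside the 0.28 of the members. Whether the shift in short genes and that in the members have one source was not tested.

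Both values moved with the handling of these libraries. Without T0 replicate 2 the members' median was 0.27 for T7 and 0.49 for T14, and 3 members were called for T14 (Mrpl33, Mrps6 and Mrps36), against 16.1% of all genes. At an adjusted p of 0.05 that fit gave 7 higher and 0 lower for T7, against 11.2% and 11% of all genes, and 16 higher and 0 lower for T14, against 17.7% and 16.6% of all genes. Without T0 replicate 1 or T0 replicate 3 no member was called for T14, against 13.4% and 14.6% of all genes, with medians of 0.21 and 0.26. With the trend on gene length taken out of each library, no member was called for T14, against 19.1% of all genes. The median was then 0.14, against -0.01 for the other short genes and 0.48 for the respiratory chain and ATP synthase subunits. In that fit Mrpl33 was at 0.85 (adjusted p = 0.0343) and Mrps6 at 0.65 (adjusted p = 0.00439).

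**Figure D5:**
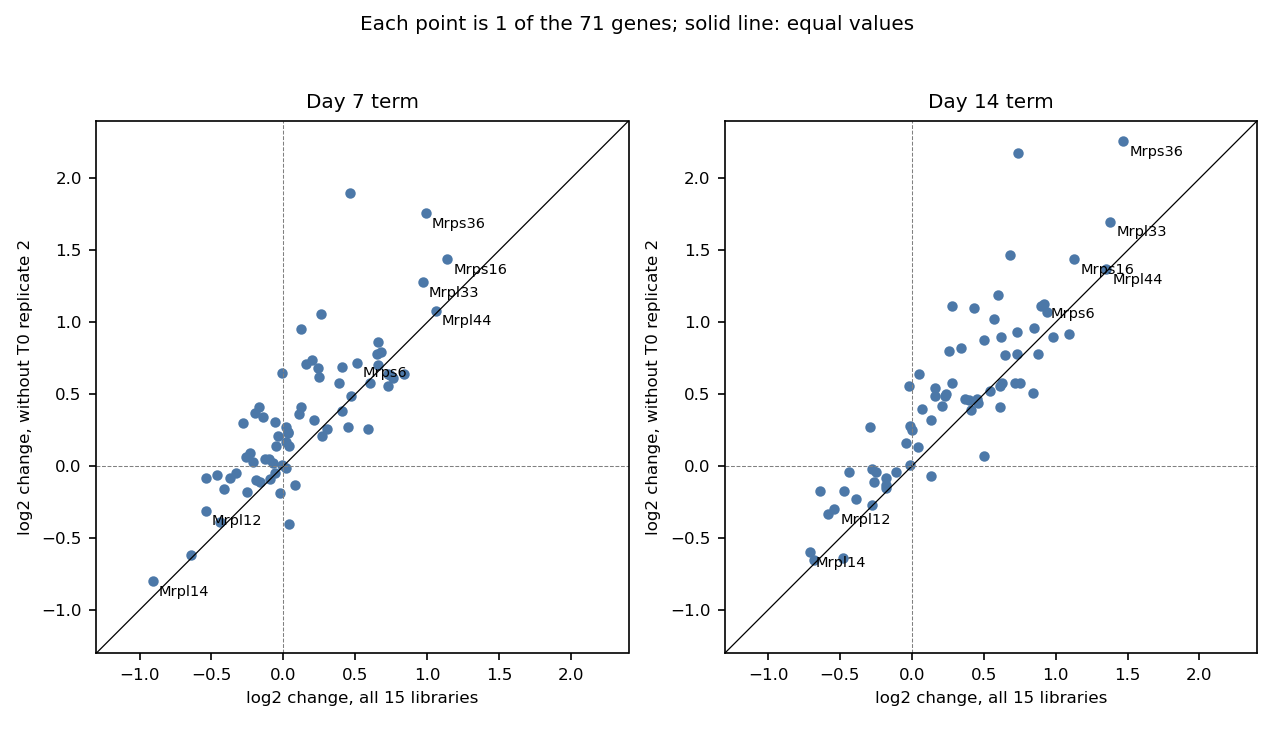
Log2 change of each of the 71 genes for the day 7 and day 14 terms, with all 15 libraries (horizontal) and without T0 replicate 2 (vertical). Most points lie above the line of equal values, and the median moves from 0.04 to 0.27 for day 7 and from 0.28 to 0.49 for day 14.

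The RA term asked which members differed with RA over both days, and none was called by edgeR, DESeq2 or limma, where edgeR called 6.39% of all genes. The members' median was 0.00, with 35 above 0 and 36 below, and the range was -0.56 to 0.50. At an unadjusted p under 0.05, 6 members passed, against 24.8% of all genes. At an adjusted p of 0.05, 2 members were lower with RA and 0 higher, where 7.3% of all genes were lower, 7.4% higher and 14.7% either. These were Mrps6 (-0.47, adjusted p = 0.0108) and Mrps15, a small-subunit protein with a bacterial homologue (-0.52, adjusted p = 0.0486). The call of Mrps15 was lost with DESeq2 and in 11 of the 15 fits with a library left out, with adjusted p from 0.0409 to 0.146 over the 15 fits. It was kept without any one T0 library or T14-RA replicate 3. That of Mrps6 was lost without T14+RA replicate 1 (adjusted p = 0.0511). Mrps15 had 44.1, 44.3 and 37.8 CPM in T7-RA against 31.4, 28.2 and 27.4 in T7+RA, and 34.8, 46.0 and 28.8 in T14-RA against 23.2, 26.7 and 29.0 in T14+RA. The groups were apart at day 7 and touched at day 14, where 1 culture without RA was at 28.8 and 1 with RA at 29.0.

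The members with the most extreme RA values did not pass the test. Mrpl58, a release factor-like protein that frees stalled ribosomes, was at -0.56 (95% interval -1.06 to -0.06, adjusted p = 0.148), with 22.7, 9.41 and 23.2 CPM in T7-RA and 5.70, 13.4 and 17.1 in T7+RA. Mrps12 was at -0.55 (adjusted p = 0.109) and Mrps31 at -0.53 (adjusted p = 0.229). Mrpl22, a protein lining the peptide tunnel, was at 0.50 (95% interval 0.05 to 0.96, adjusted p = 0.157), with 16.7, 12.1 and 18.9 CPM in T7-RA and 21.4, 32.2 and 25.7 in T7+RA. Mrpl42 was at 0.39 (adjusted p = 0.375) and Mrps36 at 0.29 (adjusted p = 0.545).

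At each day alone, no member was called for RA at day 7, where 3.17% of all genes were, or at day 14, where 4.81% were. At an unadjusted p under 0.05, 5 members passed at day 7 (17.2% of all genes) and 8 at day 14 (21.6% of all genes), and DESeq2 and limma also called none at 0.001. The day 7 median was -0.13, with 27 of 71 above 0, and the day 14 median was 0.04, with 38 above 0. The other genes under 1000 bases had medians of -0.08 and 0.09 on these days, and the respiratory chain and ATP synthase subunits -0.13 and 0.19. Groups did not overlap for 12 members at day 7, 2 of them higher with RA (11.8% of all genes) and 10 lower (12.6% of all genes). At day 14, 7 were higher (13.4% of all genes) and 3 lower (13.9% of all genes).

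The difference between the RA changes of the 2 days was not called for any member at an adjusted p of 0.05, where 0.743% of all genes were, and 3 members passed at an unadjusted p under 0.05 (8.35% of all genes). The members' differences ran from -0.61 to 1.27. Mrps18b, a small-subunit protein, was the only member whose groups separated in opposite directions on the 2 days. Of all genes 0.76% did so, and 0.397% did so in the direction of Mrps18b, so that 1 of 71 is near the background. It had 42.9 to 45.7 CPM in T7-RA and 29.9, 38.9 and 32.6 in T7+RA, then 38.4, 42.5 and 40.6 in T14-RA and 57.9, 45.6 and 67.1 in T14+RA. Every culture with RA was thus below its counterparts at day 7 and above them at day 14. The T0 values of 24.8, 63.8 and 52.4 CPM spanned nearly this whole range.

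In the second week, no member was called without RA (2.95% of all genes) or with RA (4.67% of all genes). At an unadjusted p under 0.05, 5 members passed without RA (18.4% of all genes) and 11 with RA (22.6% of all genes). Those 11 were all higher at day 14, as were 11.3% of all genes. With RA the median from day 7 to day 14 was 0.24, with 55 of the 71 above 0, against 0.01 over all genes and 0.16 over the other genes under 1000 bases. Without RA it was 0.06, with 42 above 0. The respiratory chain and ATP synthase subunits had medians of 0.59 with RA and 0.29 without. Between T7+RA and T14+RA, 13 members were higher without overlap (14.4% of all genes) and 0 were lower (13.6% of all genes). Only Mrps18b passed an adjusted p of 0.05 in this step, at 0.74 (adjusted p = 0.0387), where 5.66% of all genes were higher. Between T7-RA and T14-RA, 6 members were higher and 6 lower without overlap, against 13.2% and 12.5% of all genes. The T0 libraries do not enter these changes, but they enter the estimate of the spread behind the p-values.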

How the data were processed

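RNA of 15 H9c2 cultures in 5 groups was sequenced. The authors trimmed the reads, mapped them with HISAT2 to the rat genome (Rnor_6.0 in the submitters' processing notes), counted them per gene with featureCounts, and deposited raw counts of the genes with more than 20 counts over all libraries. Tool versions, the annotation release and the strand setting are not given in the sources used here. From these counts, edgeR 4.0.16 in R 4.3.3 gave TMM-scaled CPM and quasi-likelihood F tests (robust) on all 11574 genes. The formula with T7, T14 and RA terms and the threshold of 0.001 follow the study's methods. A model of 5 group means gave the RA change at each day, its difference between days (threshold 0.05) and the second week. TPM used the longest size that the deposited annotation lists for each gene. Alternatives were other scalings, filters, DESeq2 1.42.0, limma 3.58.1, a replicate block and each library left out. The fits were also run on simulated data with known changes, and the outcome of that run is not reported here. The members and gene lists were chosen with earlier results of these data known. Members named with values were those called for any term, the 3 highest and 3 lowest for T7, T14 and RA among members with a mean of at least 10 counts, the 3 highest and 3 lowest by count, and Mrps36. From the other lists up to 3 called genes of lowest p per list and term could be named. Genes outside this rule, such as Mrps11, Mrpl46, Mrps15, Mrps18b, the marker genes, regulators other than Pprc1, and those at 0.05, were named after their values were seen. Gene lists of mitochondrially encoded subunits were not analysed here.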

Additional observations from a re-analysis of the deposited data

Results flagged for a closer look

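The RA change of Mrps18b at day 14 minus that at day 7 was 0.88 on the log2 scale (SE 0.350). It is listed because every culture with RA lay below every culture without RA at day 7 and above every one at day 14, as was the case for 0.397% of all genes, so that 1 of 71 members is near the background. In the edgeR test of the difference itself the p was 0.0149 and the adjusted p over all genes 0.408, so the difference did not pass.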

How the results depend on the processing

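The count of members called for T14 was 2, against 17.3% of all genes, and changed most with the processing. It was 3 with scaling by library size alone (Mrpl15, Mrpl33 and Mrps6), against 17.8% of all genes. With a filter of at least 10 counts in every library it was 1, against 25.1% of the genes kept. That filter left 35 members to test and removed Mrpl33. With DESeq2 and limma-voom the count was 1 in each, against 15.1% and 15.5% of genes. With limma on quantile-normalized counts it was 0, where the share of all genes was also lower, at 9.46%. It was 0 as well with a length offset chosen after seeing the data, against 19.1% of all genes. At an adjusted p under 0.05 it was 15, and 16 when T0 replicate 2 was also left out, an alternative likewise chosen after seeing the data. At 0.05 the counts were 7 for T7 and 7 without T0 replicate 2, 2 for RA and 2 without T0 replicate 2, and 1 for the second week with RA. With each library left out, the counts at 0.05 ran from 2 to 7 for T7, 11 to 16 for T14 and 0 to 2 for RA, and DESeq2 gave 2, 9 and 1. With single libraries left out, the T14 count ran from 0 to 3, and the counts for T7, RA, RA at each day, the difference between days and both second weeks stayed at 0. The T14 median ran from 0.21 to 0.49 and the T7 median from -0.02 to 0.27 in those fits. Scaling by library size alone moved the median of all genes to 0.13 for T7 and 0.15 for T14 and that of the members to 0.14 and 0.38. The T7 median was -0.06 with the length offset. None of the 19 changes of members chosen by the naming rule, in 13 genes, turned sign in the settings that tested them. That rule took called or extreme values from these same data, so that a turn of sign was unlikely from the start. Smaller changes outside the rule did turn sign without T0 replicate 2, such as Mrpl2 (-0.01 to 0.65) and Mrpl21 (-0.17 to 0.41) for T7. Mrpl33 missed 0.001 with DESeq2 (adjusted p = 0.00216), voom (0.00157) and quantile scaling (0.00481), and Mrps6 with quantile scaling (0.0014). The replicate block left 2 members called for T14 (Mrpl33 and Mrps6). Libraries with the same replicate number were not paired by the labels. Their deviations correlated at a mean of 0.054 over 30 pairs against -0.027 over 60 pairs of different numbers, and 9 of 15 libraries correlated best with their own number. Members had a median of 20 counts per library and a median standard error of 0.292 for T14, against 0.257 over the genes in their range of total counts. The part of depth in it was not tested.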
